A study of Mus musculus with 12 samples.

Results

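The 10 genes described here are 4 Notch receptors (Notch1, Notch2, Notch3 and Notch4), 3 of their ligands (Jag1, Jag2 and Dll4) and 3 of their target genes (Hes1, Hey1 and Heyl). They were taken by name from the 55414 genes of the expression table, and all 10 were found once. RNA of whole lungs from 12 mice on a C57BL/6J background was sequenced on day 4 after airway instillation of 50 µg of lipopolysaccharide (LPS), a bacterial cell wall component that induces acute lung injury. The IL-10 B-KO mice (n = 6), or knockouts, came from the cross of Il10 flox/flox mice with mb1-cre mice, in which the recombinase is driven from the Cd79a locus and is therefore active in B cells. The IL-10 B-WT mice (n = 6) were their controls, whose alleles are not spelled out in the labels. Both genotypes received LPS, so the comparison is of 2 genotypes under LPS and holds no untreated lung. The age of the mice and the pooling of animals are not given in the sources used here. The values are TPM, transcript abundances that are divided by gene length and scaled to 1 total per library.

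Notch receptors are single-pass membrane proteins that are activated by Jagged and Delta-like ligands on a neighboring cell. Ligand binding exposes the receptor to an ADAM protease and then to gamma-secretase, and the freed intracellular domain joins the DNA-binding protein RBPJ to switch on genes of the Hes and Hey families. In the vessel wall Notch1 and Notch4, with the ligand Dll4 and the target Hey1, are known from endothelial cells, whereas Notch3 and Heyl are known from pericytes and vascular smooth muscle cells.

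Of the 10 genes only Notch3 passed the threshold, a Benjamini-Hochberg adjusted p of 0.05 in limma across 15148 genes together with a log2 fold change of 1 or more in either direction. It was lower in the IL-10 B-KO genotype, with no overlap. This compares with 0.469% of all genes tested that were called lower, 0.495% called in either direction, and 0.924% that were lower with no overlap between the genotypes. At an unadjusted p of at most 0.05, 2 of the 10 genes were lower, Notch3 and Heyl, beside 5.71% of all genes that were lower and 12.5% that differed in either direction. By the mean of log2(TPM + 1), 7 of the 10 were lower and 3 were higher, with a median log2 fold change of -0.14, while the median over all genes tested was 0.10.

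**Figure D1:**
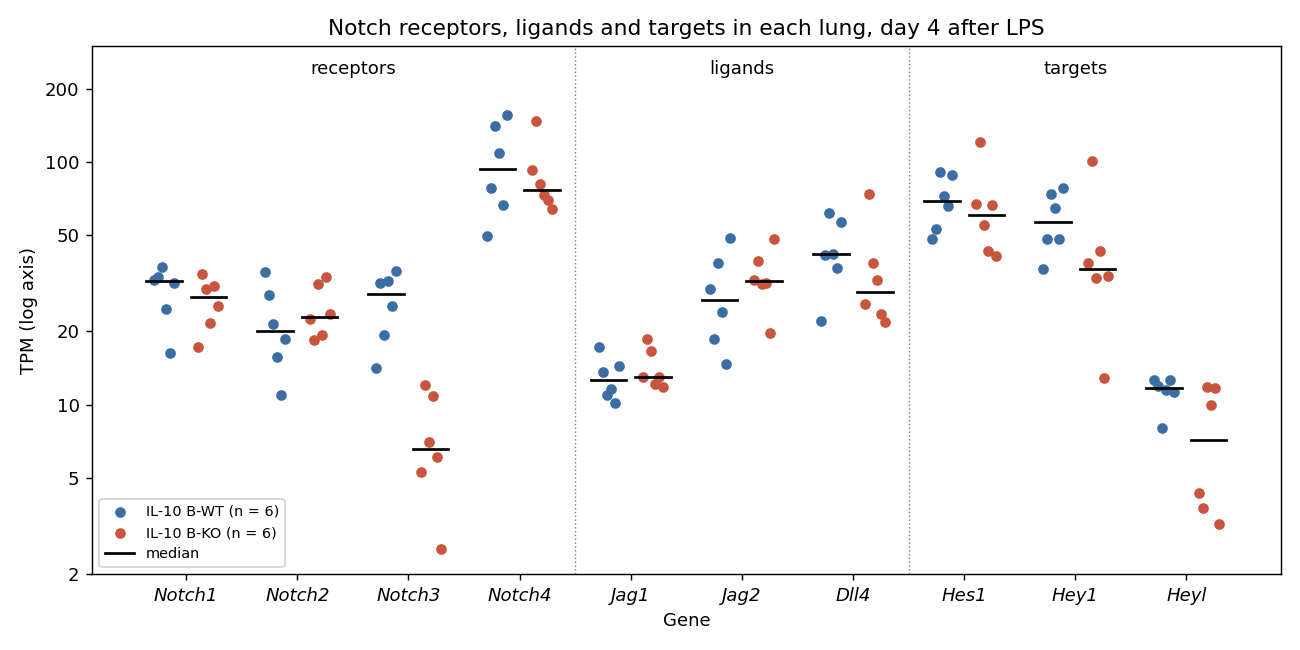
TPM on a log axis of the 10 genes in each lung, with 1 point per lung, IL-10 B-WT in blue, IL-10 B-KO in red and a black line at the median of the 6 lungs. The Notch3 points separate by genotype, from 14.17 to 35.61 TPM against 2.54 to 12.02 TPM, whereas the points of the other 9 genes overlap.

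A check of the samples preceded these comparisons. The deleted gene, Il10, was listed between 0 and 0.88 TPM in lungs of IL-10 B-WT mice and between 0 and 0.58 TPM in those of IL-10 B-KO mice. Whole-lung Il10 did not separate the genotypes (exact permutation test, two-sided, p = 0.745, n = 6). It was too low to be tested by limma, and values this near 0 cannot show whether the gene was deleted. The paper reports lower IL-10 in the lung and lavage fluid of these knockouts after LPS, and measured Il10 mRNA in sorted lung B cells. Cd79a, which carries the cre insertion, ranged from 15.3 to 258.6 TPM and from 0 to 5.73 TPM (log2 fold change -4.16, limma adjusted p = 0.0222). Markers of alveolar type 2 and type 1 cells were abundant in every lung, which matches the labeled tissue. IL-10 B-WT replicate 5 stood apart, with a median log2(TPM + 1) of 2.996 against 3.59 to 4.02 in the other lungs and the lowest limma quality weight, 0.157, followed by IL-10 B-WT replicate 1 at 0.458. The number of genes called across the genome was 75, and leaving out 1 lung moved it from 15, without IL-10 B-KO replicate 5, up to 576, when IL-10 B-WT replicate 1 was left out. TPM keep no read depth, so the precision of each value rests on the spread between lungs.

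Notch3 (ENSMUSG00000038146, GRCm38 chromosome 17, 32120820 to 32166852, minus strand) encodes the receptor of mural cells, the pericytes and smooth muscle cells that wrap vessels. Replicates 1 to 6 of IL-10 B-WT had 14.17, 31.68, 19.37, 32.37, 25.35 and 35.61 TPM. Those of IL-10 B-KO had 5.28, 12.02, 7.0, 10.85, 6.09 and 2.54 TPM. The highest IL-10 B-KO lung, replicate 2, lay below the lowest IL-10 B-WT lung, replicate 1. The mean fell from 26.4 ± 8.35 TPM (SD, n = 6) to 7.30 ± 3.55 TPM (SD, n = 6), a 3.62-fold difference. The log2 fold change on log2(TPM + 1) was -1.78 (standard error 0.32, 95% confidence interval -2.46 to -1.10), with a limma adjusted p of 0.0236. The exact permutation test on the same scale gave p = 0.00216 (two-sided, n = 6), which is the smallest p that 6 lungs against 6 allow. From the lowest log2 fold change upward, Notch3 ranked 115th of the 15148 genes.

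The direction and size of the Notch3 difference held in every alternative tried, with log2 fold changes from -1.94 to -1.56, but its call did not. Among the scalings and filters, the limma adjusted p rose to 0.0999 with no filter on low TPM, 0.0734 with median centring and 0.0658 with quantile normalization. Of the IL-10 B-WT lungs, it was 0.0552 without replicate 2, 0.0738 without replicate 4, 0.0707 without replicate 5 and 0.07 without replicate 6. Of the IL-10 B-KO lungs, it was 0.0703 without replicate 1, 0.0595 without replicate 3 and 0.0732 without replicate 5. The call stood without any 1 of the other 5 lungs, and the adjusted p was 0.00799 without IL-10 B-WT replicate 1.

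The sequence before the Notch3 start is shown because Notch3 was the only gene of the 10 past the threshold. It covers the 250 bases upstream of the RefSeq start on GRCm38.p6 (chr17:32166891-32167140, minus strand), printed 5′ to 3′ with GC boxes (GGGCGG or its complement CCGCCC) in capitals.
Notch3 upstream region: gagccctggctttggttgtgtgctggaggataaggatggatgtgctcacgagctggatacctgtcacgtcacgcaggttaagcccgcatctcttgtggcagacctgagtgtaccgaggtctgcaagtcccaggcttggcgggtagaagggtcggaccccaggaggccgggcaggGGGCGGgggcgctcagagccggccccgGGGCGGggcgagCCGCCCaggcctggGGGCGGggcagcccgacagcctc
The 4 GC boxes began 76, 49, 37 and 23 bases before the start, and 68.8% of the bases were G or C. The GC box was chosen after the data had been seen. It occurred on either strand in the same window of 5 of the 7 genes with a RefSeq entry (Notch1, Notch2, Notch3, Jag2 and Dll4) and in 32.7% of 32851 promoters. The windows of Notch1 (chromosome 2, 26503823 to 26504072) and Jag2 (chromosome 12, 112929496 to 112929745) lie inside the gene spans printed for them below. Those of Jag1, Notch2 and Notch4 overlap the printed spans in part. The spans come from GENCODE, which places these starts elsewhere. The core letters bound by RBPJ, TGGGAA, occurred on neither strand in any of the 7 windows, against 21.6% of all promoters, and the longer form GTGGGAA, which contains them, occurred in none of the 7 against 5.42%. These are matches of letters in a short window and not binding sites. Hes1, Hey1 and Heyl had no entry.

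The remaining receptors did not pass the threshold and their genotypes overlapped. Notch1 (ENSMUSG00000026923, chromosome 2, 26457903 to 26516663, minus strand), a receptor of endothelial and many other cells, ranged from 16.30 to 36.79 TPM in IL-10 B-WT lungs (median 32.23) and from 17.29 to 34.59 TPM (median 27.74) in the knockouts. The genotypes differed by -0.12 on the log2 scale, with a 95% confidence interval from -0.60 to 0.35 (limma adjusted p = 0.815). This interval leaves out a fall as large as that of Notch3. Notch2 (ENSMUSG00000027878, chromosome 3, 98013527 to 98150361, plus strand), which is known for its part in marginal zone B cell development, ranged from 10.96 to 35.01 TPM (median 20.04) and from 18.46 to 33.39 TPM (median 23.05). The log2 fold change of Notch2 was 0.24, with a standard error of 0.26 (limma adjusted p = 0.682). Notch4 (ENSMUSG00000015468, chromosome 17, 34564268 to 34588503, plus strand), a receptor of endothelial cells, had the highest mean of the 10 genes in both genotypes. It ranged from 49.36 to 156.28 TPM (median 93.5) in IL-10 B-WT lungs and from 63.62 to 146.68 TPM (median 76.9) in the knockouts. For Notch4 the log2 fold change was -0.13, with a standard error of 0.29 (limma adjusted p = 0.855), and it was 0.02 without IL-10 B-WT replicate 6.

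**Figure D2:**
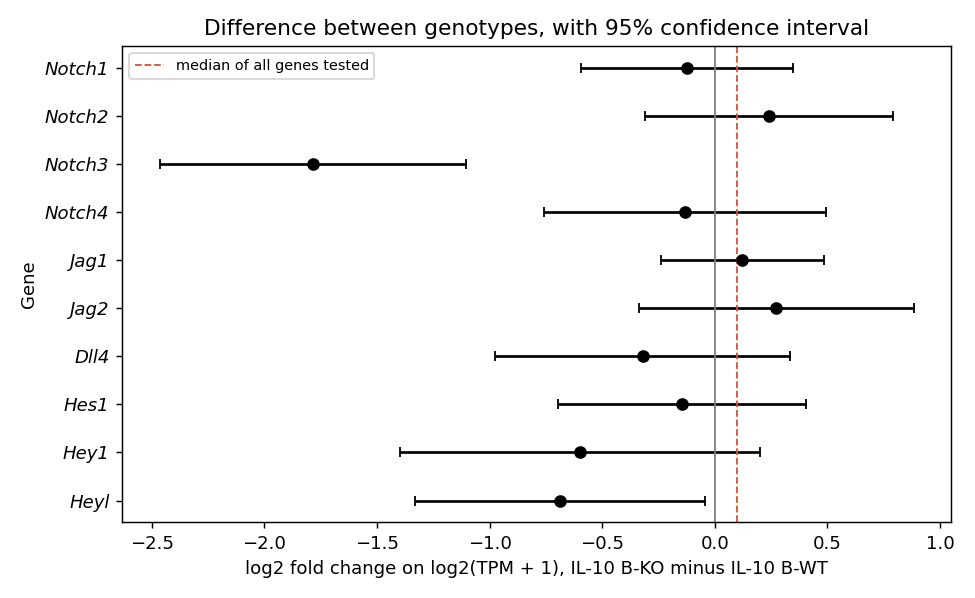
Log2 fold change on log2(TPM + 1) of each of the 10 genes (points, IL-10 B-KO minus IL-10 B-WT, 6 lungs each) with its 95% confidence interval (bars), a grey line at 0 and a dashed line at the median of all genes tested, 0.10. The intervals of Notch3 (-2.46 to -1.10) and Heyl (-1.33 to -0.04) lie below 0, and the others include it.

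As a share of the summed TPM of the 4 receptors, Notch3 made up 8.86% to 21.4% in IL-10 B-WT lungs (median 16.2%) and 2.20% to 8.70% in the knockouts (median 4.53%). The shares of Notch3 did not overlap between the genotypes. Notch4 made up the largest share in all 12 lungs, 37.6% to 64.5% in IL-10 B-WT and 49.7% to 69.3% in IL-10 B-KO. Notch1 took 13.1% to 24.9% and 12.6% to 22.2%, and Notch2 took 7.72% to 26.7% and 8.72% to 23.9%. The 4 receptors summed to 118.7 to 242.4 TPM and to 115.3 to 211.8 TPM, which overlapped broadly.

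The ratio of Notch3 to another receptor within a lung does not depend on the scaling of that lung. These ratios were chosen after the data had been seen. On the log2 scale without a pseudocount, Notch3 over Notch1 was -0.17 ± 0.74 (SD, n = 6) in IL-10 B-WT and -1.999 ± 0.80 (SD, n = 6) in IL-10 B-KO, a difference of -1.83 (exact permutation test, two-sided, p = 0.00433). The difference was -2.21 for Notch3 over Notch2 (exact permutation p = 0.00649) and -1.82 for Notch3 over Notch4 (exact permutation p = 0.00433). All 3 had an adjusted p of 0.00649 (exact permutation, Benjamini-Hochberg over the 3 ratios). The 3 ratios share the Notch3 values, already seen to separate the genotypes, so these p values add no independent evidence of a difference. The genotypes overlapped in each of the 3 ratios, although they did not in the TPM of Notch3 itself.

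**Figure D3:**
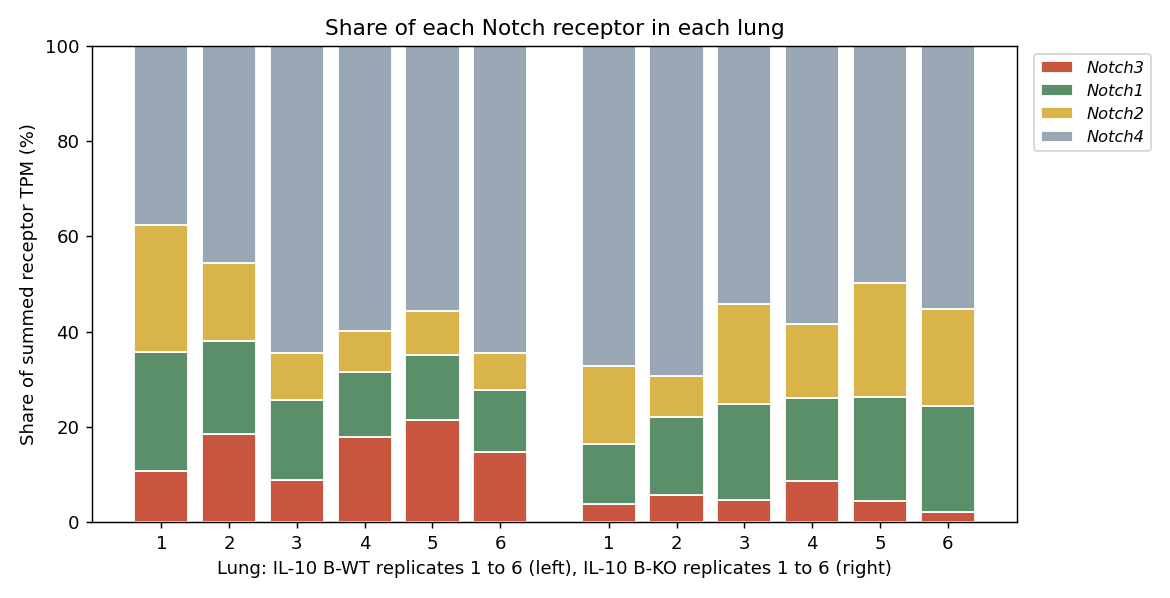
Share of each receptor in the summed TPM of the 4 Notch receptors, 1 stacked bar per lung, with IL-10 B-WT replicates on the left and IL-10 B-KO replicates on the right. The red segment, Notch3, is between 8.86% and 21.4% on the left and between 2.20% and 8.70% on the right, and Notch4 in grey is the largest segment of every bar.

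Markers of the cell types known for Notch3 were lower in the same lungs. All 10 of 10 pericyte markers were lower in the knockouts, and their median log2 fold change was -0.99. Trpc6, a cation channel, and Pdgfrb, the platelet-derived growth factor receptor of mural cells, were called, at -1.29 (limma adjusted p = 0.0195) and -1.44 (limma adjusted p = 0.0456). Ndufa4l2 and Higd1b, next by limma p, were at -1.67 and -1.16 (limma adjusted p = 0.0719 and 0.168). At an unadjusted limma p of at most 0.05, 7 of the 10 were lower. Rgs5 and Kcnj8, named after their values were seen, were at -0.25 and -0.17 (limma adjusted p = 0.802 and 0.858). Like the other lists, this one was chosen with earlier results of these data known, and the paper reports Pdgfrb among its lower hub genes. The summed TPM of the pericyte markers was 249.3 to 628.6 in IL-10 B-WT and 84.7 to 301.0 in IL-10 B-KO, and none was at 0 in every lung. Of 8 smooth muscle markers, 7 were tested and all 7 were lower, with 0 called (limma), 4 at an unadjusted p of at most 0.05, and a median of -0.89. Their summed TPM was 262.5 to 1077 and 113.0 to 557.3. The 10 markers shared by lung endothelium were all lower, with 0 called (limma), 3 at an unadjusted p of at most 0.05, and a median of -0.39, and their summed TPM was 2116 to 4818 and 2029 to 4422. The lists for single kinds of endothelium differed in direction. Of the arterial markers, the kind of endothelium known for Dll4 and Hey1, 4 of 6 were higher, with a median of 0.27, and 0 had an unadjusted limma p of at most 0.05. All 7 capillary markers were lower, with a median of -0.82 and 4 at an unadjusted limma p of at most 0.05, and 3 of 4 tested lymphatic markers were lower, with a median of -0.11. None of the arterial, capillary and lymphatic markers was called (limma). Their part in the Notch3 result was not tested, and in whole lung fewer cells of a type and less RNA per cell cannot be told apart.

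The log2 TPM of Notch3, without a pseudocount, was set against the mean log2(TPM + 1) of the pericyte markers. This log2 ratio was 0.56 ± 0.26 (SD, n = 6) in IL-10 B-WT and -0.46 ± 0.58 (SD, n = 6) in IL-10 B-KO. The ranges, 0.13 to 0.77 and -1.27 to 0.52, overlapped. The difference in this ratio was -1.02 against the pericyte markers, -1.07 against the smooth muscle markers and -1.57 against the markers shared by lung endothelium, and only against the shared endothelial markers did the genotypes not overlap. The 2 sides of the ratio are on unlike scales, and the added 1 shrinks changes of low markers, so these differences are partly set by the scale. On log2(TPM + 1) for both, Notch3 was at -1.78, while the mean of the pericyte markers went from 4.09 to 3.16. Single pericyte markers on that scale ran from -1.67 (Ndufa4l2) to -0.17 (Kcnj8), so some fell nearly as far as Notch3. These are descriptions without a test, since the markers and Notch3 came from the same lungs.

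The ligands showed no difference past the threshold, and 2 of the 3 were higher on average. Jag1 (ENSMUSG00000027276, chromosome 2, 137081456 to 137116644, minus strand), a Jagged ligand made by endothelial and smooth muscle cells, ranged from 10.11 to 17.18 TPM (median 12.6) in IL-10 B-WT and from 11.79 to 18.69 TPM (median 12.99) in IL-10 B-KO. The log2 fold change of Jag1 was 0.12 (standard error 0.17, 95% confidence interval -0.24 to 0.48, limma adjusted p = 0.759), and it had the narrowest interval of the 10 genes. Jag2 (ENSMUSG00000002799, chromosome 12, 112907819 to 112929776, minus strand), the other Jagged ligand, ranged from 14.70 to 48.56 TPM (median 27.0) and from 19.68 to 47.93 TPM (median 32.1). At 0.27 its log2 fold change was the highest of the 10, with limma adjusted p = 0.677. Dll4 (ENSMUSG00000027314, chromosome 2, 119325784 to 119335962, plus strand), the Delta-like ligand of sprouting and arterial endothelium, ranged from 21.99 to 61.56 TPM (median 41.5) and from 21.86 to 73.61 TPM (median 29.2). In 5 of 6 IL-10 B-KO lungs Dll4 was below the IL-10 B-WT median, while IL-10 B-KO replicate 2 was above every IL-10 B-WT lung. For Dll4 the log2 fold change was -0.32, with a standard error of 0.30 (limma adjusted p = 0.648).

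Among the target genes the values were lower on average in IL-10 B-KO lungs for all 3, and none passed the adjusted threshold. Heyl (ENSMUSG00000032744, chromosome 4, 123233556 to 123249875, plus strand), a Hey family repressor found in vascular smooth muscle, had 12.61, 11.95, 7.99, 11.53, 12.62 and 11.25 TPM in replicates 1 to 6 of IL-10 B-WT. Replicates 1 to 6 of IL-10 B-KO had 4.32, 3.74, 11.85, 9.99, 11.67 and 3.23 TPM. The IL-10 B-KO lungs fell into a low set, replicates 1, 2 and 6, below every IL-10 B-WT lung, and a set of the other 3 within the IL-10 B-WT range. The means were 11.3 ± 1.73 and 7.47 ± 4.12 TPM (SD, n = 6 each). The log2 fold change was -0.69 (standard error 0.30, 95% confidence interval -1.33 to -0.04), with an unadjusted limma p of 0.0386 and an adjusted p of 0.378, and the exact permutation test gave p = 0.0779 (two-sided, n = 6). The unadjusted limma p stayed at or under 0.05 without any 1 of 4 lungs and rose above it without any 1 of the other 8, within a range of 0.0142 to 0.0949. Within a lung, the log2 ratio of Heyl to Hes1 differed by -0.65 (exact permutation p = 0.258) and that of Heyl to Hey1 by -0.18 (exact permutation p = 0.805).

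Hey1 (ENSMUSG00000040289, chromosome 3, 8663359 to 8667256, minus strand), a Hey family repressor of arterial endothelium, ranged from 36.27 to 78.20 TPM (median 56.4) in IL-10 B-WT and from 12.84 to 101.16 TPM (median 36.0) in IL-10 B-KO. In 3 knockout lungs it was below the whole IL-10 B-WT range, and in IL-10 B-KO replicate 2 it was above that range. The log2 fold change of Hey1 was -0.60 (standard error 0.37, 95% confidence interval -1.40 to 0.20, limma adjusted p = 0.498), with p = 0.184 in the exact permutation test. Without IL-10 B-KO replicate 2 the log2 fold change of Hey1 was -0.88 (unadjusted limma p = 0.0116, limma adjusted p = 0.150, exact permutation p = 0.013). Hes1 (ENSMUSG00000022528, chromosome 16, 30064384 to 30067796, plus strand), a repressor of the Hes family that many cell types use, ranged from 48.08 to 90.34 TPM (median 68.98) and from 41.07 to 121.11 TPM (median 60.6). The lowest 2 knockout lungs were below the IL-10 B-WT range and the highest was above it. For Hes1 the log2 fold change was -0.15, with a standard error of 0.26 (limma adjusted p = 0.815).

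By mean TPM the order in IL-10 B-WT lungs was Notch4, Hes1, Hey1, Dll4, Notch1, Jag2, Notch3, Notch2, Jag1 and Heyl. Among the knockouts it was Notch4, Hes1, Hey1, Dll4, Jag2, Notch1, Notch2, Jag1, Heyl and Notch3. Notch3 moved from the 7th place to the 10th, and the first 4 places were the same genes in the same order. The ranges of every pair of neighbors overlapped in both genotypes. Within single lungs the order was firmer at the top, since Notch4 was above Hes1 in 6 of 6 lungs of each genotype. Hes1 was above Hey1 in 6 of 6 IL-10 B-WT lungs and 5 of 6 IL-10 B-KO lungs. At the bottom, Heyl was above Notch3 in 3 of 6 IL-10 B-KO lungs.

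The genes varied together between lungs in part. Of 6 pairs compared, chosen as a receptor or ligand with a partner in the same cell type, 2 were correlated over the 12 lungs after each genotype's mean of log2(TPM + 1) had been subtracted. Notch4 and Dll4 had a Pearson r of 0.873 (permutation p = 0.0004, adjusted p = 0.0024) and a Spearman rho of 0.867 (permutation p = 0.00023, adjusted p = 0.00138). The r was 0.935 within IL-10 B-WT, 0.887 within IL-10 B-KO and 0.808 without the 2 lungs farthest from the median of Notch4. Dll4 and Hey1 had an r of 0.807 (permutation p = 0.00252, adjusted p = 0.00756) and a rho of 0.755 (permutation p = 0.00749, adjusted p = 0.0225). For this pair the r was 0.933 within IL-10 B-WT, 0.797 within IL-10 B-KO and 0.626 without the 2 lungs farthest from the median of Dll4. Lungs high in the endothelial receptor Notch4 were also high in the endothelial ligand, in either genotype. All values of a lung share 1 library and 1 total.

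Notch3 and Heyl, the 2 mural genes, had an r of 0.287 (permutation p = 0.457, adjusted p = 0.548) and a rho of 0.147 (permutation p = 0.689, adjusted p = 0.689). Without the 2 lungs farthest from the median of Notch3 the r was 0.00613. The lung with the highest Notch3 among the IL-10 B-KO lungs, replicate 2, was among the lowest in Heyl. The other 3 pairs, Notch3 and Jag1 (r = 0.198, permutation p = 0.553, rho = 0.259, permutation p = 0.425), Notch1 and Hes1 (r = 0.275, permutation p = 0.393, rho = 0.406, permutation p = 0.221), and Notch2 and Hes1 (r = -0.333, permutation p = 0.261, rho = -0.308, permutation p = 0.322), did not pass the adjustment over 6 pairs. Their r without the 2 lungs farthest from the median was 0.512, 0.567 and -0.302.

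**Figure D4:**
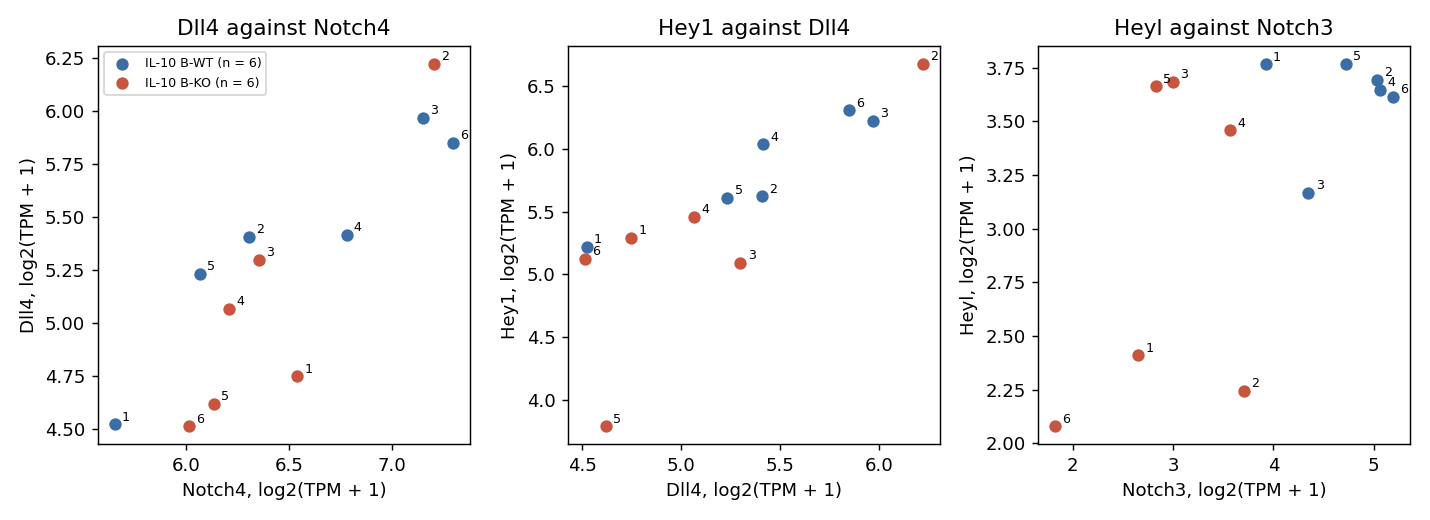
Values of 3 pairs of genes on log2(TPM + 1), 1 point per lung labeled with its replicate number, IL-10 B-WT in blue and IL-10 B-KO in red. Dll4 rises with Notch4 (r = 0.873 after the genotype means are subtracted) and Hey1 with Dll4 (r = 0.807), while Heyl against Notch3 (r = 0.287) shows IL-10 B-KO replicates 1, 2 and 6 apart at low Heyl.

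The genes whose pattern over the 12 lungs was most like that of Notch3, by Pearson's r on log2(TPM + 1) with each genotype's mean subtracted, were Mylk (0.959), Gucy1b1 (0.949), Cdh13 (0.943), Mustn1 (0.937) and Myh11 (0.931). Gucy1b1 was also called, with a log2 fold change of -1.65 (limma adjusted p = 0.0378). Of the other 9 genes, Dll4 was the most like Notch3 (r = 0.691), and Heyl was at 0.287. For Dll4 the nearest genes were Chst7 (0.950), Npr3 (0.944), Arhgef12 (0.941), Smurf2 (0.934) and Soga1 (0.930), and Notch4 ranked 24th. For Hes1 they were Sema6d (0.909), Pcdhga4 (0.904), Gpr155 (0.904), Rasip1 (0.899) and Slc50a1 (0.897), with Notch4 ranking 23rd and Dll4 79th.

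The wider Notch pathway, a list of 63 genes that leaves out the 10 above, had 55 genes tested. None was called (limma), with 25 lower and 30 higher, a median log2 fold change of 0.09 and a lowest adjusted p of 0.238. At an unadjusted p of at most 0.05, 6 were lower and 3 higher, beside the 5.71% of all genes tested that were lower and the 12.5% that differed in either direction. Under 2 alternatives, limma quality weights and the analysis without IL-10 B-WT replicate 1, 1 gene of the list was called, Nrarp. The 50 further genes that the table assigns to the Notch pathway of KEGG gave a like picture, with 46 tested, 0 called (limma), 4 at an unadjusted p of at most 0.05 and a median of 0.06.

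Among further targets, 9 of 13 genes were tested, 5 lower and 4 higher. Nrarp, a feedback inhibitor of Notch signaling, went from 41.97 ± 11.7 to 22.4 ± 10.7 TPM (SD, n = 6 each), with a log2 fold change of -0.93 (limma unadjusted p = 0.00663, adjusted p = 0.249). Gata3, a transcription factor, was at -0.81 (limma adjusted p = 0.238), Efnb2, the arterial ephrin, at -0.76 (limma adjusted p = 0.330) and Hey2, the third Hey gene, at -0.41 (limma adjusted p = 0.364). Each of these 4 was lower at an unadjusted limma p of at most 0.05, while Cdkn1a, a cell cycle inhibitor named after its value was seen, was at 0.70 (limma unadjusted p = 0.0459, limma adjusted p = 0.382).

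Of the machinery that cuts the receptor, 10 genes were tested, 9 higher and 1 lower, with a median log2 fold change of 0.34. The gamma-secretase subunits Aph1c and Aph1b, which are close paralogs, were at 0.73 (limma unadjusted p = 0.0307, adjusted p = 0.357) and -0.34 (limma unadjusted p = 0.0363, adjusted p = 0.375), and the split of reads between them is uncertain. Furin, the protease of the first cut, was at 0.80 and Adam17 at 0.70 (limma adjusted p = 0.441 and 0.470). The ubiquitin ligases and adaptors held 13 tested genes, 8 lower and 5 higher, led by Neurl1b at -0.67 and Dtx4 at 0.88 (limma adjusted p = 0.298 and 0.330). Of the 6 glycosyltransferases that modify the receptors, 4 were lower and 2 higher, with Lfng at 0.34 and Mfng at -0.29 (limma adjusted p = 0.449 and 0.581). In the nuclear complex, 6 of 16 genes were lower and 10 higher, and Rbpj, the DNA-binding partner of all Notch receptors, was at 0.37 (limma adjusted p = 0.554). Dll1, the only further ligand with enough signal to test, was at 31.3 ± 10.8 and 24.4 ± 9.85 TPM (SD, n = 6 each), with a log2 fold change of -0.35 (limma adjusted p = 0.541). Dll3, Dlk1, Dlk2, Dner, Hes2, Hes5, Hes7 and Ptcra were too low to test.

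**Figure D5:**
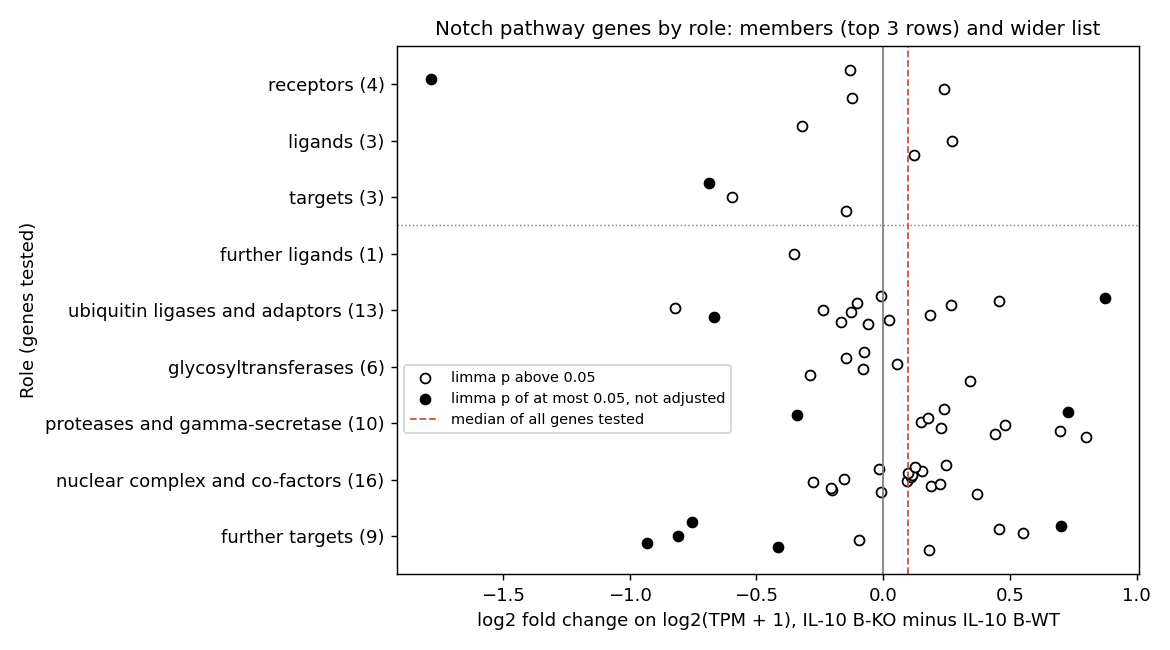
Log2 fold changes on log2(TPM + 1) (IL-10 B-KO minus IL-10 B-WT, 1 point per gene) of the 10 genes in the top 3 rows and of the 55 tested genes of the wider list below, by role, with filled points at an unadjusted limma p of at most 0.05 and a dashed line at the median of all genes, 0.10. Notch3 at -1.78 lies farthest from 0, and 9 of 10 genes of the proteases and gamma-secretase lie above 0.

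Marker lists of other cell types also differed in median between the genotypes, although few of their genes were called. B cell markers were lower in 8 of 8 genes, with 1 called and a median log2 fold change of -1.96, and Cd79a and Cr2 were at 0 in at least 3 IL-10 B-KO lungs. All 7 neutrophil markers (median 1.87) and all 8 macrophage and monocyte markers (median 1.61) were higher, with 0 of the 15 called (limma) and 13 of them at an unadjusted p of at most 0.05. Alveolar type 2 markers were higher in 6 of 6 genes (median 0.85, 0 called by limma, 4 at an unadjusted p of at most 0.05). The 4 club cell markers were all lower (median -1.002), as were the 5 cardiomyocyte markers (median -1.19), with 0 called by limma in either list and 0 and 1 at an unadjusted p of at most 0.05. Medians were nearer to 0 for ciliated cells (-0.43, 4 of 5 lower), alveolar type 1 cells (-0.31, 4 of 5 lower), fibroblasts (-0.16, 5 of 8 lower) and T cells (0.13, 3 of 7 lower). The part of these cell types in the values of the Notch genes was not tested.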

How the data were processed

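RNA of 12 whole lungs, 6 for each genotype, was measured by RNA-seq on day 4 after 50 µg of LPS. The authors deposited TPM, computed per gene with RSEM, with fastp and HISAT named for earlier steps in the submitters' processing notes and GRCm38.p5 as the build. Versions and the annotation release are not given in the sources used here. Column names gave each library's sample, and no column was left unused. TPM keep no depth, so no count model or counting interval was calculated. TPM also share 1 total per library, so a large share taken by some genes lowers the others.

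Genotypes were compared with limma 3.58.1 in R 4.3.3 (lmFit, eBayes with trend) on log2(TPM + 1) over the 15148 genes that reached a TPM of 1 in 6 or more libraries, with genotype as the only term and Benjamini-Hochberg adjustment. The study's methods name limma among several tools with a fold of change of at least 1, which was read here as log2. Fold changes on this scale understate those of low genes. Single genes were given an exact permutation test (two-sided, all arrangements), and pairs of genes by 100000 permutations within genotype. The labels name no batch, and replicate numbers were not taken as pairs. The fits were tested on simulated data.

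The 10 genes and all lists were chosen with earlier results of these data known. Named genes were the 10, up to 4 genes per list with the smallest limma p, called genes, the 5 genes most like Notch3, Dll4 and Hes1, and Il10 and Cd79a. GENCODE release M21 on GRCm38 gave the coordinates of all 10 by ID, and RefSeq on GRCm38.p6 gave promoter sequences for 7 of the 10. Python 3.11.15 with SciPy 1.17.1, NumPy 2.4.6, pandas 2.3.3 and matplotlib 3.10.9 was used for the rest. The alternatives changed the pseudocount (0.1), the filter (none, or mean TPM of 5), the scaling (median centring, quantile normalization, or rescaling that leaves out immunoglobulin genes), the weights (limma array quality weights), the terms (a replicate block), the call (no minimum fold change), the permutation scale (no log) and the libraries (each left out in turn).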

Additional observations from a re-analysis of the deposited data

Results flagged for a closer look

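Of 20 groups of 6 lungs examined, 10 genes in each of 2 genotypes, 5 held a lung whose gap to its nearest neighbor was above Dixon's 95% critical value for the share of the group's range. For normally distributed values, chance gives such a lung in about 1 of 20 groups. The gaps were taken on TPM without a log, which stretches high values, so this rate need not hold here. Gaps on log2(TPM + 1), the scale of the fits, were not examined. IL-10 B-KO replicate 2 was the lung set apart for 4 genes. It was the highest IL-10 B-KO lung for Notch4, at 146.68 TPM with a gap of 0.657 of the range, and for Dll4, at 73.61 TPM with a gap of 0.681. It was also the highest for Hes1, at 121.11 TPM with a gap of 0.68, and for Hey1, at 101.16 TPM with a gap of 0.658. These 4 genes share the lung and are not independent of each other. In IL-10 B-WT lungs, Heyl was lowest in replicate 3, at 7.99 TPM with a gap of 0.704.

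IL-10 B-KO replicate 2 was the highest lung of its genotype for 7 of the 10 genes, and IL-10 B-KO replicate 6 the lowest for 6. Without IL-10 B-KO replicate 2, Dll4 and Hey1 had an unadjusted limma p of 0.0493 and 0.0116, and neither passed the threshold (limma adjusted p = 0.266 and 0.150).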

How the results depend on the processing

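Over all genes tested, 75 were called. The count was 6 with no filter, 27 when rescaled without immunoglobulin genes, 39 with quantile normalization, 36 with median centring and 318 with array quality weights, and 15 to 576 when 1 lung was left out. Median centring moved the median log2 fold change of all genes from 0.10 to -0.01. The share of calls that were higher was 5.33%, and it was 16.7% with no filter, 25.5% with array quality weights and 59.7% without IL-10 B-WT replicate 1. Of the 10 genes, 1 was called (Notch3). The number was 0 with no filter, with quantile normalization and with median centring, and 0 to 1 with 1 lung left out, and the cause was not tested. The number at an unadjusted p of at most 0.05 was 2, and it was 5 with array quality weights (Notch1, Notch3, Notch4, Dll4 and Hey1) and 1 to 3 with 1 lung left out. Of the wider list, 0 were called, 1 with array quality weights and 0 to 1 with 1 lung left out. The exact permutation test called 1 of the 10, and 1 to 2 with 1 lung left out, Hey1 being added without IL-10 B-KO replicate 2 and Heyl without replicate 3 or 5. The log2 fold change of Notch4 ran from -0.31 to 0.018 with 1 lung left out, and turned from -0.13 to 0.018 without IL-10 B-WT replicate 6, the only change of direction among the 10 genes.

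With the replicate number as a block, 45 genes were called, 0 of the 10 genes were called (Notch3 at -1.78, limma adjusted p = 0.0679) and 1 was at an unadjusted p of at most 0.05. Correlations of same-numbered lungs ran from -0.292 to 0.0458 and 0 of 6 IL-10 B-WT lungs correlated best with their own number. These values show no pairing by number, but 6 such correlations cannot exclude a shared litter or day. The number of correlated pairs was not recomputed under other settings.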
